A study of Mus musculus with 5 samples.

Results

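The genes described here are 8 adipokine genes, Adipoq, Lep, Retn, Retnla, Rbp4, Nampt, Cfd and Nrg4, out of 21728 protein-coding genes on the autosomes and X of the mouse (GENCODE M21, mm10). They were chosen by name and lie on 7 chromosomes. H3K27me3 was profiled by ChIP-seq in dermal fibroblasts of late mouse embryos after expansion in AmnioMAX culture. The Kdm6b-cKO group (replicates 3 and 4) carried Dermo1Cre with Kdm6b fl/fl, so that Cre expressed from Dermo1 deletes the gene in dermal fibroblasts. The WT group (replicates 7 and 9) is labelled wild type, and the labels state a GFP+ sort, as the sign of the conditional deletion, for WT libraries as well. Each group held n = 2 libraries, and nothing in the labels says that they came from separate embryos, so the p-values measure only the spread between libraries, which may be technical. The question was how far H3K27me3 peaks covered the adipokine genes after loss of Kdm6b.

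Adipokines are proteins that fat tissue releases to act on other cells, and in skin the dermal adipocytes arise from the same fibroblast progenitors as the rest of the dermis. Polycomb repressive complex 2 trimethylates lysine 27 of histone H3 over genes that a cell keeps silent, often in broad domains, and Kdm6b (Jmjd3) takes methyl groups off this lysine. A fibroblast is not a cell that is known for making adiponectin or leptin, and expression was not measured in these libraries.

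Each library came as a list of broad peaks with no read counts. The depth behind a peak is therefore unknown, the deletion of Kdm6b could not be checked, and values carry no interval for counting error. There were 44077 and 40565 peaks in Kdm6b-cKO replicates 3 and 4, covering 148.3 and 123.9 Mb, against 29841 and 22597 peaks in WT replicates 7 and 9, covering 91.4 and 61.5 Mb. These totals move with genotype, and their part in the differences below was not tested beyond the settings with equal lists given at the end. Promoters of 10 of 10 fibroblast markers carried no peak in any library, as did 3 of 3 immune markers and 5 of 5 housekeeping genes. Over all genes, 15477 of 21728 promoters were marked in no library. Epcam and Cdh1 of 5 keratinocyte markers, Kdr of 3 endothelial markers and Sox10 of 3 melanocyte markers were marked in all 4. Krt5 had 2.75% and 12.4% and Krt14 19.5% and 0% of the promoter covered in Kdm6b-cKO replicates 3 and 4, against 0% in WT. Trp63 had 0% throughout. In such a bulk measurement, fewer marked cells and less mark per cell cannot be told apart.

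The sequences just before the transcription start site (TSS) show what kind of promoter the mark lay on. The 250 bases upstream of the RefSeq TSS (GRCm38.p6, the assembly of mm10) are printed for Adipoq, Retn and Cfd, whose coverage there differed between libraries, and for Lep, covered in full in every library, written 5′ to 3′ in lower case with each CpG in capitals. Rbp4, whose stretch was also covered in full in every library, is not printed. The 4 stretches lie at chr16:23146286-23146535 (plus strand), chr8:3655520-3655769 (plus strand), chr6:29059971-29060220 (plus strand) and chr10:79890603-79890852 (plus strand).
Adipoq: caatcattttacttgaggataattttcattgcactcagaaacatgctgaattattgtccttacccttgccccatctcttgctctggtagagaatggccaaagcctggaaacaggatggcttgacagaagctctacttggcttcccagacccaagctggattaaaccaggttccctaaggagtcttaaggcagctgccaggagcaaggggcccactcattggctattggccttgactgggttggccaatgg
Retn: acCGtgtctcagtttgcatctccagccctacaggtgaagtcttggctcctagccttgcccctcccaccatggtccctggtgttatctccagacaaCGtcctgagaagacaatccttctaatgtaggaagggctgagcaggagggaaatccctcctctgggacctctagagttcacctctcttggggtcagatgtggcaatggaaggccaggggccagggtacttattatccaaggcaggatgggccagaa
Lep: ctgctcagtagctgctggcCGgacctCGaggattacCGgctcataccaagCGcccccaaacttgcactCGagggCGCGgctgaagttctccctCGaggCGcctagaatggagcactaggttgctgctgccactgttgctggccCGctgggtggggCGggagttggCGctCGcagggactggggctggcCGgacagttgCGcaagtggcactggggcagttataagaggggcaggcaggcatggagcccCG
Cfd: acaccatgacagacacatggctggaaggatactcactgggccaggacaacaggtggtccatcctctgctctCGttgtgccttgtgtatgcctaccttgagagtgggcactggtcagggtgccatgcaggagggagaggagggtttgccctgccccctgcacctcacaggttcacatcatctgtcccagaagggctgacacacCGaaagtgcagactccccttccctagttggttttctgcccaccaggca

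The Adipoq stretch holds 0 CpG, those of Retn and Cfd hold 2 each and that of Lep holds 16, where the median over 32851 RefSeq promoters of this length is 6. The Lep bases were 100% covered in all 4 libraries. The Adipoq bases were 100% and 89.2% covered in Kdm6b-cKO replicates 3 and 4, against 85.6% and 35.2% in WT replicates 7 and 9. Thus a promoter with no CpG in this window was covered in part or in full in all 4 libraries. The Retn bases were 100% covered in both Kdm6b-cKO libraries, against 0% and 69.6% in WT replicates 7 and 9. For Cfd, Kdm6b-cKO replicate 4 covered 100% and the other 3 libraries 0%. Read on both strands, CCAAT occurs in 3 places in the Adipoq stretch and in 33.85% of all promoters, and TTGCNNAA occurs in 1 place in the Lep stretch and in 9.56% of all promoters. TATAAA, which 12.4% of promoters hold, is in none of the 4 printed stretches.

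Across the promoter, taken as the TSS ± 3 kb, the 8 genes fell into 3 sets. Adipoq, Lep, Retn, Rbp4 and Nrg4 were marked, with at least 500 bp under peaks, in all 4 libraries. Of all promoters, 28.8% met that minimum in 1 library or more and 15.2% in all 4, which is 52.7% of the 6251 marked. The Adipoq promoter was close to that minimum in WT replicate 9, with 8.38% of its window covered. Cfd was marked in Kdm6b-cKO replicate 4 alone, as were 5.47% of marked promoters, and no member was marked in both Kdm6b-cKO libraries without WT, a pattern of 14.9% of marked promoters. Around Adipoq, Lep, Retn, Rbp4, Nrg4 and Cfd at least 500 bp was covered within 25 kb, as at 54.4% of all genes. Retnla and Nampt had no peak within 25 kb in any library, a state shared by 42.7% of all genes. The plot of promoter coverage shows these sets gene by gene.

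**Figure D1:**
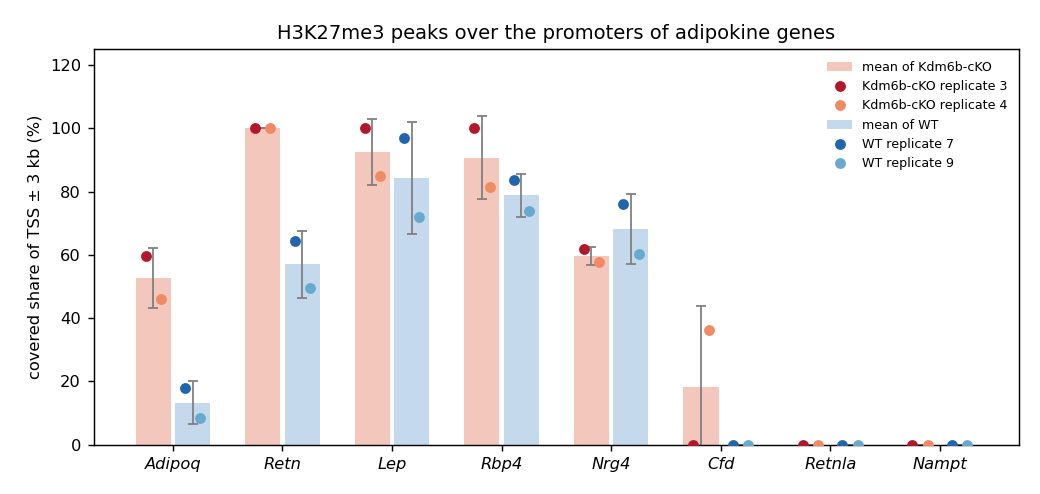
Covered share of the TSS ± 3 kb (%) for each adipokine gene, with a point for each library and bars for the mean ± SD of Kdm6b-cKO (left, n = 2) and WT (right, n = 2). Both Kdm6b-cKO points lie above both WT points for Adipoq and Retn, and Retnla and Nampt are at 0 in every library.

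No member passed limma with Benjamini-Hochberg adjustment over all genes, at either window. At the TSS ± 3 kb, 6 members were tested and 0 were called at an adjusted p under 0.05, where 8.03% of 6251 genes were called, 7.93% higher and 0.096% lower in Kdm6b-cKO. Adipoq and Retn were the 2 members at an unadjusted p under 0.05. Within 25 kb of the TSS, 6 members were tested and 0 called, where 7.69% of 11829 genes were called, all of them higher in Kdm6b-cKO, and Adipoq and Retn were again at an unadjusted p under 0.05. Both Kdm6b-cKO values lay above both WT values in 2 of 6 members at 3 kb (Adipoq and Retn), against 49% of the genes tested, and in 5 of 6 at 25 kb (all but Rbp4), against 65.3%. The mirrored order, with both WT values above, occurred in 0 of 6 members in each window, against 2.42% of genes at 3 kb and 1.67% within 25 kb. With 2 libraries in each group, an exact permutation test of one gene cannot go below p = 0.333, and for the covered length within 25 kb it gave p = 0.333 for these 5 members and p = 0.667 for Rbp4 (two-sided).

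Adipoq (chr16:23146536-23158028, plus strand, 11.5 kb) encodes adiponectin, the abundant adipocyte hormone that raises insulin sensitivity. Its promoter was covered at 59.5% and 46.1% in Kdm6b-cKO replicates 3 and 4, against 18.03% and 8.38% in WT replicates 7 and 9. The groups did not overlap, and averaged 52.8 ± 9.49% in Kdm6b-cKO against 13.2 ± 6.82% in WT (SD, n = 2 each). The difference of 39.6 ± 7.34 points (SE) had an adjusted p = 0.112 by limma. Within 1 kb of the TSS the groups overlapped. There 89.2% and 38.35% was covered in Kdm6b-cKO, against 54.1% and 12.4% in WT, a difference of 30.5 ± 30.4 points (limma, adjusted p = 0.681). Within 25 kb the gene had 6.89 and 6.49 kb under peaks in Kdm6b-cKO, against WT values of 1.83 and 0.503 kb. This difference of 5.52 ± 0.827 kb missed the threshold, with an adjusted p = 0.0517 by limma.

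The coverage of Adipoq lay at its start and near or past its end, and none lay from 25 to 3 kb upstream in any library. A single peak of 3.57 kb ran over the TSS in Kdm6b-cKO replicate 3. In Kdm6b-cKO replicate 4 a peak of 0.728 kb stopped 0.028 kb before the TSS and another of 2.15 kb followed from 0.961 kb after it. In WT replicate 7 the peak over the TSS was 1.08 kb long, and in WT replicate 9 only fragments of 0.248 and 0.255 kb were called. Around the 3′ end, which lies 11.5 kb from the TSS, a further peak was 3.31 and 3.62 kb long in Kdm6b-cKO replicates 3 and 4. It ran from 11.2 to 14.6 kb and from 9.95 to 13.6 kb downstream of the TSS. In WT replicate 7 a peak of 0.746 kb ran from 9.69 to 10.4 kb, which did not overlap the peak of Kdm6b-cKO replicate 3. WT replicate 9 had none there. The peaks of Adipoq were thus longer or more numerous in both Kdm6b-cKO libraries, at fold enrichments over local background of 2.62 to 3.10 in Kdm6b-cKO and 2.81 to 2.87 in WT. When gaps of up to 1 kb were closed, a setting chosen after the data were seen, the promoter difference was 47.85 points (limma, adjusted p = 0.0475). When every list was held to the same covered length, it turned to -4.19 points, with 0% in Kdm6b-cKO and 4.19% in WT. That setting kept only the 5183 and 6975 strongest peaks of Kdm6b-cKO replicates 3 and 4. It left the list of WT replicate 9 whole, so the turn says little about Adipoq.

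Retn (chr8:3655770-3660110, plus strand, 4.34 kb) encodes resistin, a small cysteine-rich hormone that is made by adipocytes in the mouse. Its whole promoter was covered, at 100%, in both Kdm6b-cKO libraries, against 64.5% and 49.5% in WT replicates 7 and 9. The groups did not overlap, and the difference of 43.0 ± 6.67 points had an adjusted p = 0.0873 by limma. Within 25 kb peaks took up 19.7 and 18.6 kb in Kdm6b-cKO, against WT values of 13.2 and 7.27 kb, a difference of 8.91 ± 2.39 kb (limma, adjusted p = 0.104). The gene body was 100% covered in both Kdm6b-cKO libraries, against 71.6% and 70.7% in WT. Leaving out single libraries kept the direction at Retn. Without WT replicate 7 the differences were 50.5 points and 11.9 kb, and without WT replicate 9 they were 35.5 points and 5.94 kb. Without Kdm6b-cKO replicates 3 or 4 the promoter difference stayed at 43.0 points, and within 25 kb it was 8.34 or 9.49 kb. Such fits hold a lone library in 1 group, so only the differences are given here.

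The Retn TSS itself lay inside a peak in both Kdm6b-cKO libraries and outside one in both WT libraries. In Kdm6b-cKO replicate 3 one peak of 18.7 kb ran from 6.09 kb upstream to 12.7 kb downstream, and in Kdm6b-cKO replicate 4 one of 12.3 kb ran from 6.03 kb upstream to 6.23 kb downstream. Both WT libraries had peaks on each side and a gap over the TSS, of 2.13 kb in WT replicate 7 and 1.35 kb in WT replicate 9. Within 1 kb of the TSS the covered share was therefore 100% in both Kdm6b-cKO libraries, against 1.70% and 33.05% in WT, and this difference of 82.6 ± 14.5 points did not pass either (limma, adjusted p = 0.130). Of its neighbours, Mcemp1, whose TSS lies 9.98 kb downstream of that of Retn, had 94.6% of its promoter covered in both Kdm6b-cKO libraries, against 62.0% and 0% in WT. Stxbp2, at -24.8 kb, had 63.45% and 48.7% in Kdm6b-cKO, against 45.2% and 35.3% in WT, while the promoters of Fcor and Trappc5 were at 0% throughout. The Retn TSS and the Mcemp1 promoter thus lay under the same kind of broad coverage in Kdm6b-cKO, while Fcor and Trappc5 lay outside it.

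**Figure D2:**
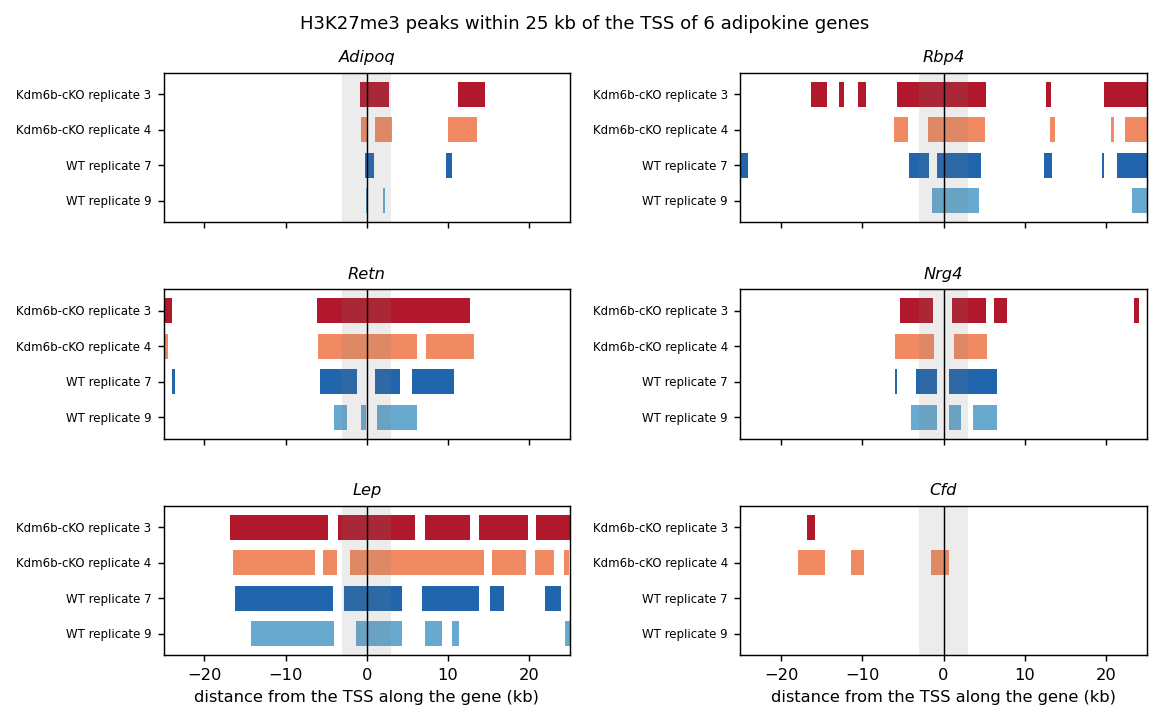
H3K27me3 peaks (filled boxes) in each library within 25 kb of the TSS of 6 adipokine genes, drawn along the direction of the gene, with the TSS as a line and the TSS ± 3 kb shaded. The Retn TSS lies in a peak in both Kdm6b-cKO libraries and in a gap in both WT libraries, and the Nrg4 TSS lies in a gap in all 4.

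Retnla (chr16:48842551-48844461, plus strand, 1.91 kb), a resistin relative best known as a marker of alternatively activated macrophages, had 0% of its promoter and 0 kb within 25 kb covered in every library. The nearest peak was 91.9 and 91.8 kb away in Kdm6b-cKO, against WT values of 479.85 and 479.8 kb. Of the other resistin-family genes of the mouse, the promoters of Retnlb and Retnlg were also at 0% in all 4 libraries. The resistin relatives were thus not alike in these cells, with Retn in a broad domain and the 3 others free of peaks at their promoters.

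Lep (chr6:29060220-29073877, plus strand, 13.7 kb) encodes leptin, the hormone that reports fat stores to the brain. It had the most covered length within 25 kb of all 8 members in every library, with 37.5 and 35.7 kb in Kdm6b-cKO replicates 3 and 4, against 29.9 and 19.3 kb in WT replicates 7 and 9. Between 96.6% and 98.01% of all genes had less, so the Lep locus ranked high in both genotypes. The mean was 36.6 ± 1.24 kb for Kdm6b-cKO against 24.6 ± 7.49 kb for WT (SD, n = 2 each), a difference of 11.97 ± 4.12 kb (limma, adjusted p = 0.151). The WT libraries were farther apart than the Kdm6b-cKO libraries.

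At the Lep promoter the groups overlapped. The TSS ± 3 kb was covered at 100% and 85.1% in Kdm6b-cKO, against 96.9% and 71.85% in WT, a difference of 8.15 ± 12.9 points (limma, adjusted p = 0.745). A peak over the TSS was 9.53 and 16.5 kb long in Kdm6b-cKO, against WT values of 7.14 and 5.63 kb. A second domain upstream, ending between -6.36 and -4.04 kb of the TSS, was 12.1 and 10.1 kb long in Kdm6b-cKO, against WT values of 12.1 and 10.2 kb. The groups overlapped upstream, with 12.6 and 11.8 kb covered from 25 to 3 kb before the TSS in Kdm6b-cKO, against WT values of 12.1 and 10.2 kb. Most of the difference lay on the other side, where 18.8 kb was covered from 3 to 25 kb downstream in both Kdm6b-cKO libraries, against WT values of 12.015 and 4.83 kb. No other protein-coding gene starts within 25 kb of the Lep TSS. Centring each library on its own mean brought the difference within 25 kb to 7.92 kb, which passed (limma, adjusted p = 0.0223), and turned that at the promoter to -9.03 points. The difference within 25 kb was 17.3 kb without WT replicate 7 and 6.68 kb without WT replicate 9. Without Kdm6b-cKO replicates 3 or 4 it was 11.1 or 12.8 kb. At the promoter the difference was 0.68 and 15.6 points without Kdm6b-cKO replicates 3 and 4, and 20.7 and -4.38 points without WT replicates 7 and 9. A further protein-coding start of Lep lies 5.24 kb downstream. Within 3 kb of that start 80.9% and 100% was covered in Kdm6b-cKO, against 58.7% and 53.45% in WT. The groups did not overlap there, and the difference of 34.4 ± 8.79 points did not pass (limma, adjusted p = 0.154).

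Rbp4 (chr19:38116629-38125281, minus strand, 8.65 kb) encodes the plasma carrier of retinol, which liver and fat secrete. Its promoter was covered at 100% and 81.45% in Kdm6b-cKO, against 83.6% and 74.0% in WT, a difference of 11.9 ± 9.25 points (limma, adjusted p = 0.533). Within 25 kb it had 20.4 and 12.3 kb in Kdm6b-cKO, against WT values of 13.6 and 7.58 kb, a difference of 5.77 ± 3.89 kb (limma, adjusted p = 0.369). The groups overlapped in both windows, as WT replicate 7 exceeded Kdm6b-cKO replicate 4. Leaving out single libraries moved the Rbp4 differences widely, to 2.64 points and 1.72 kb without Kdm6b-cKO replicate 3 and to 21.2 points and 9.82 kb without Kdm6b-cKO replicate 4. Without WT replicates 7 and 9 they were 16.7 and 7.13 points, and 8.80 and 2.74 kb. The peak over the TSS was 10.9 and 7.01 kb long in Kdm6b-cKO, against WT values of 5.44 and 5.77 kb. The strongest peaks of the locus lay downstream over the start of Ffar4, a receptor for long-chain fatty acids, with fold enrichments of 4.25 in both Kdm6b-cKO libraries, against 3.46 and 3.67 in WT. Upstream, the promoter of Pde6c, a cone phosphodiesterase gene whose TSS is at -7.50 kb, had 35.3% and 26.25% covered in Kdm6b-cKO, against 0% in both WT libraries.

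Cfd and Nampt encode adipokines that are enzymes. Cfd (chr10:79890853-79892655, plus strand, 1.80 kb) encodes adipsin, the serine protease complement factor D, and is a common marker of fat cells. Its promoter was covered at 36.3% in Kdm6b-cKO replicate 4 and at 0% in Kdm6b-cKO replicate 3 and both WT libraries. One peak of 2.18 kb, from 1.52 kb before to 0.662 kb after the TSS, made up that value. The difference of 18.15 ± 16.1 points rested on 1 library (limma, adjusted p = 0.533), and it was 36.3 points without Kdm6b-cKO replicate 3 (adjusted p = 0.00944) and 0 points without Kdm6b-cKO replicate 4. Within 25 kb Cfd had 0.940 and 7.16 kb in Kdm6b-cKO, against 0 kb in both WT libraries (4.05 ± 2.45 kb, limma, adjusted p = 0.327), and the difference was 7.16 kb without Kdm6b-cKO replicate 3 and 0.940 kb without Kdm6b-cKO replicate 4. The peak that both Kdm6b-cKO libraries shared there lay over the starts of Plppr3 and Prtn3, which are at -16.2 and -16.4 kb. The promoters of Elane, Med16 and Gm26602, the other protein-coding neighbours of Cfd, were at 0% in all 4 libraries.

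Nampt (chr12:32819545-32853349, plus strand, 33.8 kb) encodes the enzyme that makes nicotinamide mononucleotide in the salvage route to NAD and is also known as visfatin. It had no coverage within 25 kb in any library. The nearest peak was 41.3 and 88.5 kb away in Kdm6b-cKO, against WT values of 46.8 and 256.1 kb. Nampt is a gene that most cell types use. Its promoter was in the same state as those of Retnla and the 5 housekeeping genes, and 15477 of 21728 promoters were marked in no library.

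Nrg4 (chr9:55220222-55326844, minus strand, 106.6 kb) encodes neuregulin 4, an EGF-family ligand of ErbB4 that brown fat secretes. It was the member whose promoter mean was lower in Kdm6b-cKO, with 61.75% and 57.7% covered, against 76.1% and 60.4% in WT. This difference of -8.53 ± 7.23 points did not pass (limma, adjusted p = 0.533), and the groups overlapped. It was -0.64 points without WT replicate 7 and -16.4 points without WT replicate 9. Within 25 kb the sign was the other way, with 10.45 and 8.78 kb in Kdm6b-cKO, against WT values of 8.72 and 7.59 kb, a difference of 1.46 ± 0.998 kb (limma, adjusted p = 0.375), which ran from 0.625 kb without Kdm6b-cKO replicate 3 to 2.295 kb without Kdm6b-cKO replicate 4. The order of the groups at Nrg4 thus depended on the window.

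The uncovered gap over the Nrg4 start was wider in both Kdm6b-cKO libraries. Tmem266 starts at -0.069 kb of the Nrg4 TSS and points the other way, so both promoter windows hold nearly the same bases. All 4 libraries had peaks on both sides of this pair of starts and none within 500 bp of the Nrg4 TSS. The uncovered gap was 2.295 and 2.54 kb wide in Kdm6b-cKO, against WT values of 1.43 and 1.48 kb. Within 1 kb of the TSS, 1.00% and 0% was covered in Kdm6b-cKO, against 28.4% and 26.05% in WT. That difference of -26.7 ± 1.19 points passed in the fit over 4591 genes with this window (limma, adjusted p = 0.0144), where 0.109% of genes were called lower and 1.07% had both WT libraries above both Kdm6b-cKO libraries. Within 5 kb the difference was 10.9 points (limma, adjusted p = 0.236), and the adjusted p of Nrg4 ran from 0.0144 to 0.982 over the settings tried for the promoter window. The fit at 1 kb was not repeated without single libraries.

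The start used for Nrg4 also matters. Of its 13 annotated transcripts, 10 start over 40 kb downstream of the gene start, 9 of them within 100 bp of each other. The RefSeq start lies there as well, 43219 bp downstream. No library had a peak within 3 kb of any of these 9 starts, while the farthest start, at 84.4 kb, had 4.88% of its window covered in Kdm6b-cKO replicate 3 and 0% in the other libraries. The values above thus describe the CpG-rich start shared with Tmem266 and not the start that most annotated Nrg4 transcripts use.

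**Figure D3:**
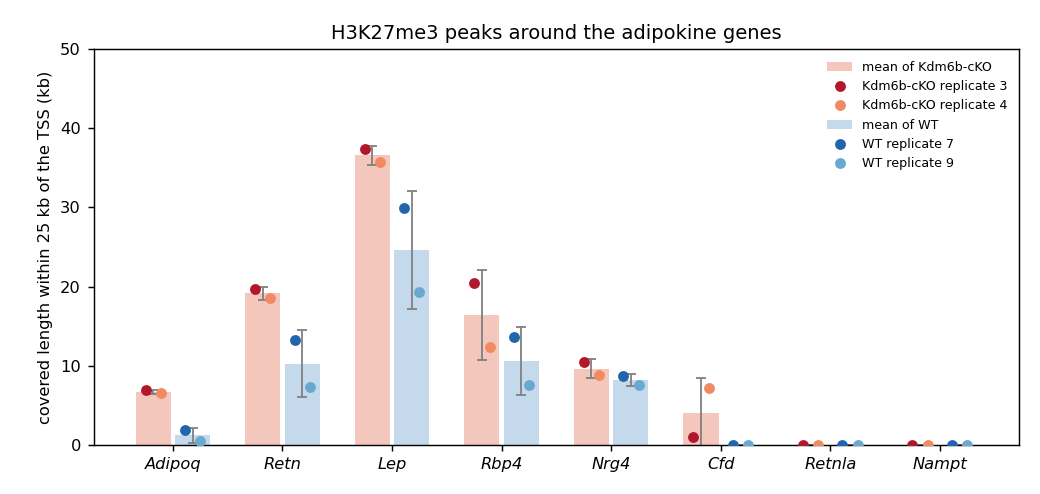
Covered length (kb) within 25 kb of the TSS of each adipokine gene, with a point for each library and bars for the mean ± SD of Kdm6b-cKO (left, n = 2) and WT (right, n = 2). Lep has the greatest length in every library, and both Kdm6b-cKO points lie above both WT points for each marked gene but Rbp4.

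The members' differences were set against those of all genes tested. At 3 kb the median difference of the 6 members was 15.03 points, with a range of -8.53 to 43.0, against a median of 11.7 points (quartiles 2.12 and 27.2) over 6251 genes. Retn and Adipoq exceeded 88.4% and 85.9% of the genes tested, Cfd 62.3%, Rbp4 50.4% and Lep 40.4%, whereas Nrg4 exceeded 2.96%. Within 25 kb the members' median was 5.65 kb, with a range of 1.46 to 11.97, against 2.41 kb (quartiles 0.833 and 5.70) over 11829 genes. There Lep exceeded 92.1% of genes, Retn 86.6%, Rbp4 75.3%, Adipoq 74.1%, Cfd 65.0% and Nrg4 36.5%. Lep thus stood in the lower part of the distribution at its promoter and near the top over the wider locus. The Lep promoter was already 96.9% and 71.85% covered in WT, and that of Rbp4 83.6% and 74.0%, so a large gain could not be seen there. The contrast between the 2 windows at Lep is limited by this. In 4 of 6 members (Adipoq, Lep, Retn and Nrg4) the covered length within 25 kb followed the order of the 4 library totals, as it did in 30.7% of the genes tested.

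**Figure D4:**
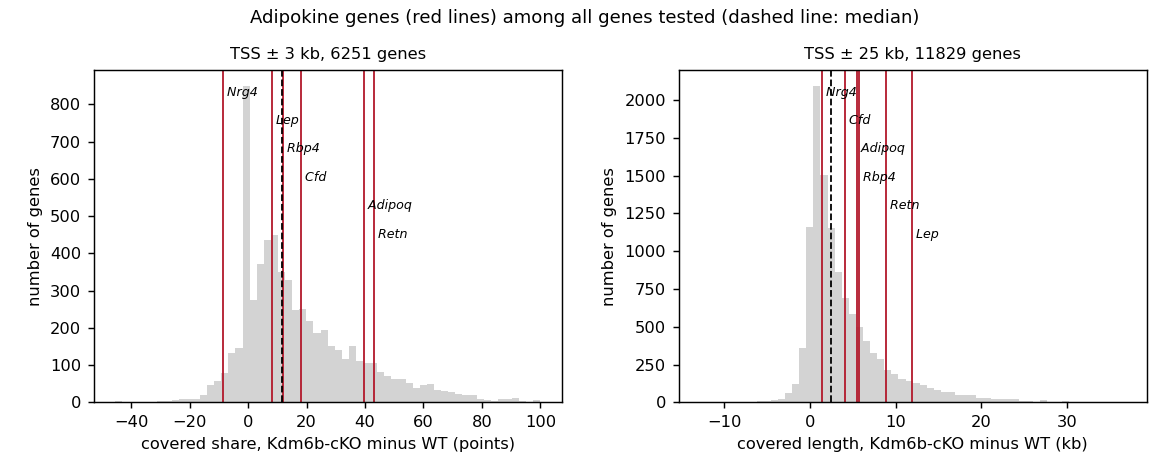
Distribution of the Kdm6b-cKO minus WT difference over all genes tested (grey, number of genes), for the covered share of the TSS ± 3 kb in points (left) and the covered length within 25 kb in kb (right), with red lines for the adipokine genes and a dashed line for the median. All but Nrg4 lie to the right of 0 at 3 kb, and Lep and Retn lie farthest right within 25 kb.

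The marked and unmarked members were not sorted by CpG density. Within 500 bp of the TSS, Nrg4 had 89 CpG per kb, more than 88.2% of genes, followed by Rbp4 with 51, Lep with 30, Nampt with 24, Retn with 13, Cfd with 10, Adipoq with 8 and Retnla with 5. The Nampt value depends on the start used. Its RefSeq start lies 790 bp downstream of the gene start, and the 250 bases before it hold 27 CpG, where the median of such stretches is 6. The median was 49 over promoters marked in all 4 libraries, 23 over those marked in the Kdm6b-cKO libraries alone, and 41 over those with no mark. Adipoq and Retn, both marked in all 4 libraries, thus lay below the lower quartile of 25 of that class, while Nampt, with no peak, had more CpG than either. Over 8 genes this is a description and was not tested.

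Genes that act with the adipokines were read from the same fits. Of 13 receptors and partners, 9 were tested at 3 kb with 0 called higher or lower, and 9 within 25 kb with 1 called higher, C3, beside the 8.03% and 7.69% called over all genes. C3, the complement component that the adipsin cascade cleaves, had 14.05 and 13.9 kb covered within 25 kb in Kdm6b-cKO, against WT values of 0.679 and 0 kb, a difference of 13.6 ± 0.692 kb (limma, adjusted p = 0.0272). Erbb3, a receptor of the neuregulin family, had 22.0 and 16.8 kb in Kdm6b-cKO, against WT values of 11.4 and 7.48 kb (limma, adjusted p = 0.0987). Ttr, the plasma partner of Rbp4, had 7.35 and 5.71 kb in Kdm6b-cKO, against WT values of 3.09 and 0 kb (limma, adjusted p = 0.119). The median difference over the tested genes of this list was 8.48 points at 3 kb and 3.84 kb within 25 kb, beside 11.7 points and 2.41 kb over all genes.

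Among 26 other secreted factors of fat, 19 had an unmarked promoter, beside 15477 of 21728 promoters over all genes, a like share. Of the 7 tested at 3 kb, 2 were called higher and 0 lower, and of the 14 tested within 25 kb, 1 was called higher and 0 lower. Over all genes 7.93% were called higher at 3 kb and 7.69% within 25 kb. Apln, the apelin gene, was covered at 99.9% and 100% of its promoter in Kdm6b-cKO, against 15.1% and 0% in WT (92.4 ± 6.72 points, limma, adjusted p = 0.0338). Fgf21, a metabolic hormone gene, had 19.8% and 17.75% in Kdm6b-cKO, against 1.95% and 0% in WT (17.8 ± 1.44 points, limma, adjusted p = 0.0391). Lcn2, which encodes lipocalin 2, had 5.93 and 6.96 kb within 25 kb in Kdm6b-cKO, against WT values of 0.238 and 0 kb (6.33 ± 0.755 kb, limma, adjusted p = 0.0414). C1qtnf6, a relative of adiponectin, had 14.5 and 11.5 kb there in Kdm6b-cKO, against WT values of 3.79 and 1.94 kb (limma, adjusted p = 0.0507), with 0% of its promoter covered in any library. The median difference of the list was 21.2 points at 3 kb and 2.62 kb within 25 kb.

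Relatives of the members by family gave 0 calls in either direction among 5 tested at 3 kb and 6 tested within 25 kb. The neuregulin genes Nrg1, Nrg2 and Nrg3 had promoters at 98.2% to 100% in every library, against 57.7% to 76.1% at Nrg4. At such values a gain at the promoters of Nrg1, Nrg2 and Nrg3 could hardly be seen, so the lack of calls there says little. Within 25 kb, Nrg1 differed by 1.82 ± 2.43 kb, Nrg2 by 2.06 ± 1.60 kb and Nrg3 by -0.67 ± 0.648 kb, none of which passed (limma, adjusted p = 0.625, 0.425 and 0.512). The list's median difference was 0 points at 3 kb and 0.491 kb within 25 kb. Of 12 regulators of adipokine transcription, 6 were tested at 3 kb with 2 called higher (Klf15 and Stat5a) and 0 lower, and 9 within 25 kb with 1 called higher (Klf15) and 0 lower, beside the same 7.93% and 7.69% over all genes. The promoter of Stat5a was covered at 14.6% and 17.5% in Kdm6b-cKO, against 0% in both WT libraries (limma, adjusted p = 0.0459). Klf15 had 22.8 and 22.0 kb within 25 kb in Kdm6b-cKO, against WT values of 6.41 and 2.16 kb (limma, adjusted p = 0.0352). Foxo1 had 10.7 and 9.90 kb in Kdm6b-cKO, against WT values of 6.33 and 3.04 kb (limma, adjusted p = 0.0968), and Cebpa had an adjusted p of 0.0637. The median difference over the list was 10.8 points at 3 kb and 2.97 kb within 25 kb.

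The differences at the members were recomputed on lists made equal in number or in covered length. With equal numbers of the strongest peaks, the promoter differences were 33.55 points at Adipoq, 43.0 at Retn, 8.15 at Lep, 22.0 at Rbp4, 18.15 at Cfd and -8.53 at Nrg4, all with the sign they had in the full lists. With equal covered length, Retn had a difference of 8.29 ± 45.6 points and Nrg4 one of -33.2, while Adipoq, Lep and Rbp4 turned to -4.19, -41.85 and -28.0 points. Under that setting the Kdm6b-cKO lists kept 5183 and 6975 peaks, against 9588 and 22597 peaks in WT, and Cfd had none. The list of WT replicate 9 was left whole, while weaker peaks were dropped most in Kdm6b-cKO. The reversals under this setting thus say little about these genes. With only peaks of a −log10 q of at least 5, the promoters of Adipoq, Retn, Lep, Rbp4 and Cfd had 0% in every library, and Adipoq, Retn and Cfd had 0 kb within 25 kb. Centring gave 22.4 points at Adipoq and 25.8 at Retn, against -9.03 at Lep, -5.26 at Rbp4 and -25.7 at Nrg4. The direction at Retn was thus the same with equal numbers, equal covered length and centring, with an SE above its size at equal covered length and no coverage left under the stricter peaks, and that at Adipoq turned with equal covered length.

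**Figure D5:**
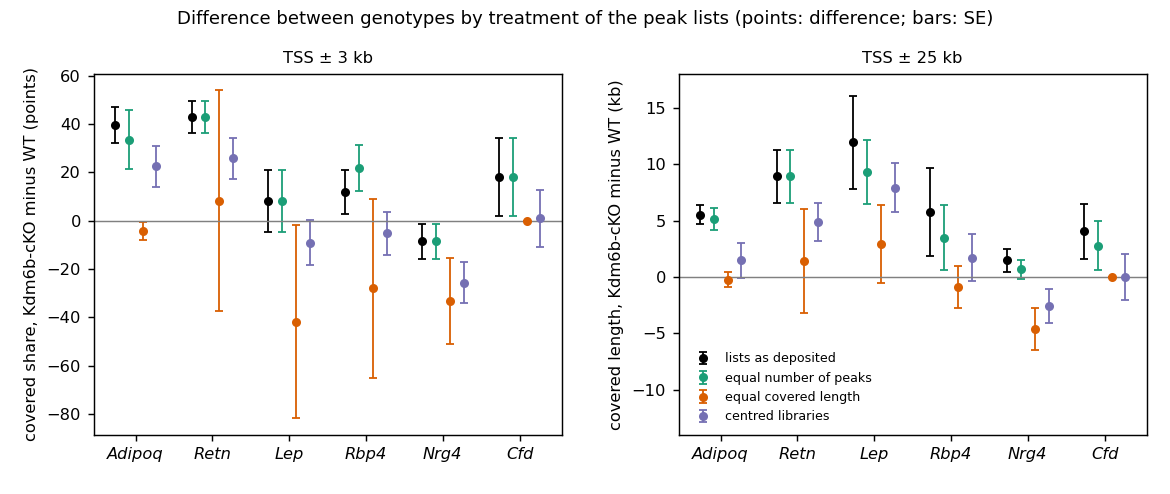
Kdm6b-cKO minus WT difference (point) with its SE from limma (bar) for 6 adipokine genes under 4 treatments of the peak lists, as the covered share of the TSS ± 3 kb in points (left) and the covered length within 25 kb in kb (right). The equal covered length values lie below 0 for Adipoq, Rbp4 and Nrg4 in both panels, and those of Retn lie above 0 under every treatment drawn.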

How the data were processed

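H3K27me3 ChIP-seq of cultured dermal fibroblasts was deposited as 1 broad peak list per library, which the authors called without pooling replicates. The submitters' processing notes list MACS2 2.2.7.1, Bowtie2 2.3.5.1, deepTools 3.5.1, SAMtools 1.9 and bcl2fastq, with the build mm10, and the study's methods give subsampling to a like number of reads and a broad cutoff of q 0.01. How the input entered the calling is not given in the sources used here, and the input was not used here. For each peak the authors deposited the −log10 p, the −log10 q-value, a score and a fold ratio over local background. Only the fold ratio and the −log10 q were used, to describe or rank peaks.

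The covered share of the TSS ± 3 kb (%) and the covered length of the TSS ± 25 kb (kb) were computed in each library for 21728 GENCODE M21 genes. Genes with at least 500 bp covered in at least 1 library were compared with limma 3.58.1 (lmFit and eBayes, R 4.3.3), with Benjamini-Hochberg adjustment over all genes tested and a threshold of 0.05. Values are bounded and often equal within a group, and limma offset zero variances. Python 3.11.15, numpy 2.4.6, pandas 2.3.3 and matplotlib 3.10.9 were used. The steps were tested on simulated data. Samples were grouped by title, 2 Kdm6b-cKO and 2 WT.

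The members and gene lists were chosen with earlier results of these data known. Beside the 8 members, genes named were their neighbours within 25 kb, and in each list those called and the 3 with the largest difference within 25 kb. Ffar4 was named after its values were seen. Asip of the secreted factors was not matched by symbol, which left 26 of 27. Alternatives covered the peak threshold, equal lists, centring, minimum coverage, the window, the start site, the variance model and single libraries left out.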

Additional observations from a re-analysis of the deposited data

How the results depend on the processing

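No paired analysis was possible because the groups share no replicate number. For the 6 marked members, 69 of the recomputed promoter differences kept their direction and side of the threshold, 4 newly passed, 8 reversed and 9 fell to exactly 0, and within 25 kb these counts were 75, 6, 5 and 4. Peaks of a −log10 q of at least 5 left 0% at the promoters of Adipoq, Lep, Retn, Rbp4 and Cfd and 0 kb within 25 kb of Adipoq, Retn and Cfd. The causes were not tested. At the promoter, equal covered length, which cut the Kdm6b-cKO lists hardest, turned Adipoq to -4.19, Lep to -41.85 and Rbp4 to -28.0 points. Centring turned Lep to -9.03 and Rbp4 to -5.26. Leaving out WT replicate 9 turned Lep to -4.38 (-4.38 to 20.7 without single libraries). Nrg4 turned to 10.9 within 5 kb. It turned to 16.8 with peaks of a −log10 q of at least 5, where only Kdm6b-cKO replicate 3 kept an Nrg4 promoter peak. Within 25 kb, equal covered length turned Adipoq to -0.25, Rbp4 to -0.90 and Nrg4 to -4.62 kb, and centring turned Cfd to -0.00493 and Nrg4 to -2.60 kb.

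The 0 members called at the promoter became 1 within 1 kb (Nrg4) and 1 with gaps closed (Adipoq), and 0 to 1 without single libraries (Cfd without Kdm6b-cKO replicate 3, Retn without WT replicate 7, 50.5 points, limma adjusted p = 0.0415). Within 25 kb the 0 became 1 with centring (Lep), 1 with the last protein-coding start, 1 with a variance trend and 1 with gaps closed (Adipoq each time), and 0 to 2 without single libraries (Lep and Retn without WT replicate 7). Closing gaps was chosen after seeing the data.

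Over all genes, the 496 higher and 6 lower calls at the promoter became 133 and 78 with equal covered length. The 496 became 273 with a variance trend and 0 to 1355 without single libraries. The 6 became 16 with equal numbers of peaks, 58 with centring (beside 493 higher), 1 within 5 kb and 0 to 62 without single libraries. The 910 higher and 0 lower calls within 25 kb became 68 and 39 with equal covered length, 354 and 1 with equal numbers, 1430 and 407 with centring, 2110 and 2 with a variance trend and 404 and 1 within 10 kb. The 910 became 0 to 1539 without single libraries, and the 0 became 4 with the stricter peaks. Fits without 1 library take the spread from 1 pair and assume that the lone library varies likewise. In the full fit, 17 genes were lower within 25 kb at an unadjusted p under 0.05.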
